A study of Mus musculus with 15 samples.

Results

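Gene expression in spontaneous Shh-type medulloblastomas of the mouse was compared with that in cerebellar cells that do not carry the Atoh1 reporter signal. The comparison used the 3 arrays sourced as Shh tumours and the 3 arrays sourced as GFP-negative cells, which are 6 of the 15 arrays of the series. It covered every gene that a probe set names alone, which gave 17097 genes from 28898 of 45141 probe sets. The tumours arose in Cdkn2c-/-; Trp53Fl/Fl; Nestin-Cre mice, whose Cre recombinase is driven by the Nestin promoter of neural progenitors. Their age is not given in the labels. The GFP-negative cells were sorted by flow cytometry from postnatal day 6 cerebella of Cdkn2c-/-, Trp53-/-, Atoh1-GFP mice. Both groups therefore lack Cdkn2c, and both carry a Trp53 deletion, conditional in the tumours and in the germline of the sorted cells. The GFP-positive fraction of the same cerebella (3 arrays) is given for context. The sample labels describe both sorted fractions as spontaneous tumour, while the design text describes them as sorted day 6 cerebellum, and the design text was followed. Tumour state, age, Trp53 allele and the way the cells were isolated differ together between the groups and cannot be told apart.

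In the developing cerebellum, Shh made by Purkinje cells binds the receptor Ptch1, which releases Smo and lets the Gli transcription factors act. Gli activity raises Gli1, Ptch1, Mycn and Ccnd1 and drives the division of granule neuron progenitors, the cells of the external granule layer that are marked by Atoh1. Shh-type medulloblastomas arise in this lineage. The cells without the reporter are the remaining cells of the tissue, which include glia, GABAergic neurons, immune and vascular cells, and granule cells that no longer express Atoh1. Low Atoh1 in them was set by the sort and is not a result.

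The values are log2 signals on 1-colour Affymetrix arrays, with a background of 4.77 taken as the 95th percentile of the 23 nonspecific control probe sets. Where a group lies below that level the size of a difference is limited by background, and the number of arrays limits the precision. Between the arrays of a group, Pearson correlations over genes ran from 0.963 to 0.988 in the tumours and GFP-negative cells. The GFP-negative 3 array stood apart: its interquartile range was 2.989, against 3.72 to 3.782 on the other 5, and its correlations with the other GFP-negative arrays were 0.963 and 0.966. Results that rest on it are given with and without it. No label ties the arrays to separate animals, so the p-values measure only spread between arrays. In the main fit that spread, and with it each standard error, was pooled over all 5 groups of 3 arrays, including groups not compared here. It is not the spread of the 6 compared arrays alone. Cdkn2c was at background on all 6 arrays (3.39 to 3.46 in the tumours and 3.31 to 3.62 in the GFP-negative cells), although the part of the gene that its probes cover is not given in the sources used here. Trp53 was not analysed here.

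Of the 17097 genes, 4959 (29.0%) differed at an adjusted p below 0.05 by limma with Benjamini-Hochberg adjustment. Higher in the tumours were 2727 genes (16.0%), and lower were 2232 (13.1%). At a difference of at least 2-fold, 1239 genes (7.25%) were higher and 1572 (9.19%) were lower. Groups did not overlap for 6985 genes (40.9%). Without GFP-negative 3, the fit called 2091 genes higher (12.2%) and 2409 lower (14.1%). Among the genes called with all arrays, 1974 of the higher and 2051 of the lower ones kept their call without it, and every called gene kept its sign. Higher genes made up 55.0% of the calls as deposited, 69.5% after centring each array on its median gene, 65.1% after centring and scaling, and 41.5% after cyclic loess. Centring moved the median difference of all genes from 0.01 to 0.22, and centring with scaling moved it to 0.26, so the balance of higher and lower calls depends on the scaling. Below, a list is described by its called members and its median difference, to be read against those percentages and the median of 0.01 over all genes. In bulk samples, fewer cells of a type and less RNA per cell cannot be told apart.

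The 15 largest rises included the granule lineage factors Barhl1 and Atoh1 and the glutamate transporter Slc17a6. Tbata, a gene expressed in thymus, brain and testis, had the largest rise: its log2 signals were 12, 12.09 and 11.52 in the tumours and 3.67, 3.76 and 4.14 in the GFP-negative cells. All 3 tumours lay far above background and all 3 GFP-negative arrays below it. The difference was 8.02 ± 0.25 (SE; 259-fold; adjusted p = 1.1e-09). Tbata was also 3.56 above the GFP-positive fraction, whose mean was 8.31. Nrn1, which encodes the neurite growth protein neuritin, read 11.34, 10.60 and 10.59 in the tumours and 3.43, 3.77 and 3.93 in the GFP-negative cells. The groups were widely separated, by 7.13 ± 0.61 (140-fold, adjusted p = 4.9e-06).

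**Figure D1:**
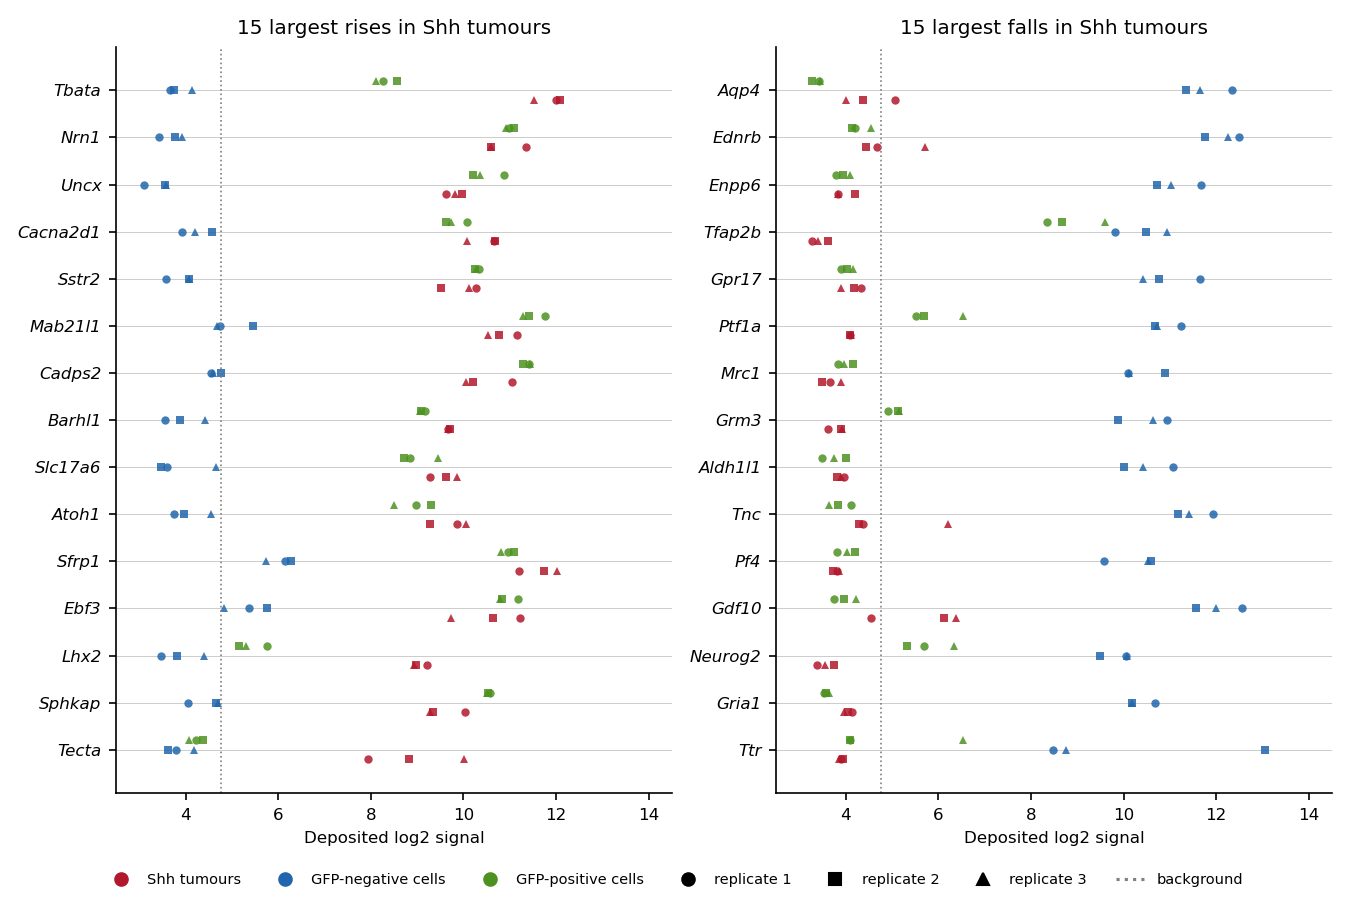
Deposited log2 signal (horizontal axes) of the 15 genes with the largest rises (left) and the 15 with the largest falls (right) in Shh tumours against GFP-negative cells; each point is 1 array, colour gives the group, shape the replicate and the dotted line the background of 4.77. Tumour and GFP-negative arrays do not overlap for any gene shown, and the GFP-positive means lie within 1 log2 unit of the tumour means for the rises other than Tbata, Lhx2 and Tecta.

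Barhl1, a homeobox gene of the granule lineage, was at 9.67, 9.70 and 9.66 in the tumours and at 3.56, 3.88 and 4.42 in the GFP-negative cells. The tumour arrays agreed closely and the GFP-negative ones were at background, a difference of 5.72 ± 0.22 (52.8-fold, adjusted p = 5.3e-09). Nhlh1, a helix-loop-helix factor of newly formed neurons, read 8.23, 8.14 and 8.10 against 4.34, 4.86 and 4.14, a rise of 3.71 ± 0.26 (adjusted p = 1.1e-06). Atoh1 itself was at 9.87, 9.28 and 10.06 in the tumours, against 3.75, 3.96 and 4.55 in the cells sorted for lacking its reporter. Apart from Atoh1, which the sort fixed, 3 of the 10 measured genes of the granule progenitor list were called, each higher: Barhl1, Nhlh1 and Zic5. Their list's median difference was 1.0, and 0.89 without GFP-negative 3. The sort on the reporter also removes progenitors from the GFP-negative cells, so these rises are not independent of it.

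Of 19 granule neuron genes, 7 rose, 1 fell and 11 were not called. Only 5 rose on the 6 arrays alone, without GFP-negative 2 or without Shh 1. Grin2c and Nfib, with small rises of 0.61 and 0.33, lost their calls in each of these fits (adjusted p from 0.1 to 0.18). Neurod1, a factor of granule cell differentiation, read 12.61, 12.39 and 12.06 in the tumours and 7.68, 9.45 and 9.58 in the GFP-negative cells. The groups did not overlap, and GFP-negative 1 was clearly the lowest array (difference 3.45 ± 0.42, 10.9-fold, adjusted p = 7.0e-05). Reln, the secreted guidance protein reelin, rose by 3.26 ± 0.32 (adjusted p = 1.5e-05). Rbfox3, the splicing factor known as the neuronal antigen NeuN, rose by 3.13 ± 0.16 (adjusted p = 4.9e-08). Cntn2 and Fat2, adhesion proteins of early granule cells and their progenitors, rose by 3.06 and 3.16. The gene that fell was Cntn1, another adhesion protein (8.94, 7.95 and 5.99 in the tumours against 10.49, 9.88 and 9.29). Its call was lost without GFP-negative 1, GFP-negative 2, Shh 2 or Shh 3 (adjusted p from 0.064 to 0.16) and on the 6 arrays alone. Genes of mature granule cells were at background on both sides: Gabra6 read 3.63 to 3.88 in the tumours and 3.26 to 3.52 in the GFP-negative cells, and Cbln3 read 3.46 to 3.72 and 3.58 to 3.77.

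Lhx2 and Tecta were high in the tumours and low in both sorted fractions. Lhx2, a LIM homeobox gene, read 9.22, 8.98 and 8.94 in the tumours and 3.48, 3.82 and 4.40 in the GFP-negative cells, with a GFP-positive mean of 5.41. The tumours were thus above every sorted array, by 5.14 ± 0.51 over the GFP-negative cells (35.4-fold, adjusted p = 1.5e-05) and by 3.64 over the GFP-positive ones. Tecta, which encodes the inner ear matrix protein alpha-tectorin, read 7.93, 8.83 and 10.01 in the tumours and 3.8, 3.62 and 4.19 in the GFP-negative cells, with a GFP-positive mean of 4.22. Shh 3 was the highest and Shh 1 the lowest, with every tumour above every sorted array, and the rise was 5.05 ± 0.37 (adjusted p = 1.4e-06). Comparisons with the GFP-positive fraction use the same tumour arrays, so these values stand side by side and are not independent.

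Genes of the Shh pathway did not move in 1 direction. Of 15 measured pathway genes and targets, 4 rose and 4 fell, with a median difference of -0.11 that turned to 0.10 after centring and to 0.22 after centring with scaling. Without GFP-negative 3 the counts were 4 and 3, without GFP-negative 1 or without Shh 1 only 2 fell, and so did 2 after centring, with or without scaling, and 1 in a fit of the 6 arrays alone. Shh itself was at background on every array (3.31 to 3.60 in the tumours and 3.48 to 3.83 in the GFP-negative cells). Gli1, the transcription factor most closely tied to pathway activity, read 9.05, 9.38 and 9.58 in the tumours and 7.59, 6.95 and 6.46 in the GFP-negative cells. All tumours were above all GFP-negative arrays, by 2.34 ± 0.27 (5.05-fold, adjusted p = 4.8e-05), and above the GFP-positive mean of 7.95.

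Ptch1, the Shh receptor and a target of the pathway, went the other way and differed greatly among the tumours. It read 9.90 in Shh 1, 7.03 in Shh 2 and 4.56 in Shh 3, against 11.05, 10.53 and 10.66 in the GFP-negative cells. Shh 1 was within reach of the sorted cells while Shh 3 was below background, and no tumour reached the lowest GFP-negative array. The difference was -3.59 ± 0.89 (adjusted p = 0.0089), and the GFP-positive mean was 10.50. Fitted on the 6 arrays alone, the same difference did not pass the threshold (adjusted p = 0.088). The other Ptch1 probe set was below background on all 6 arrays (3.70 to 4.07) and differed by 0.09 (adjusted p = 0.89). Gli3, which acts largely as a repressor of the pathway, fell from 8.68, 8.25 and 8.24 to 5.43, 4.76 and 5.70 (-3.09 ± 0.27, adjusted p = 6.5e-06), without overlap.

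**Figure D2:**
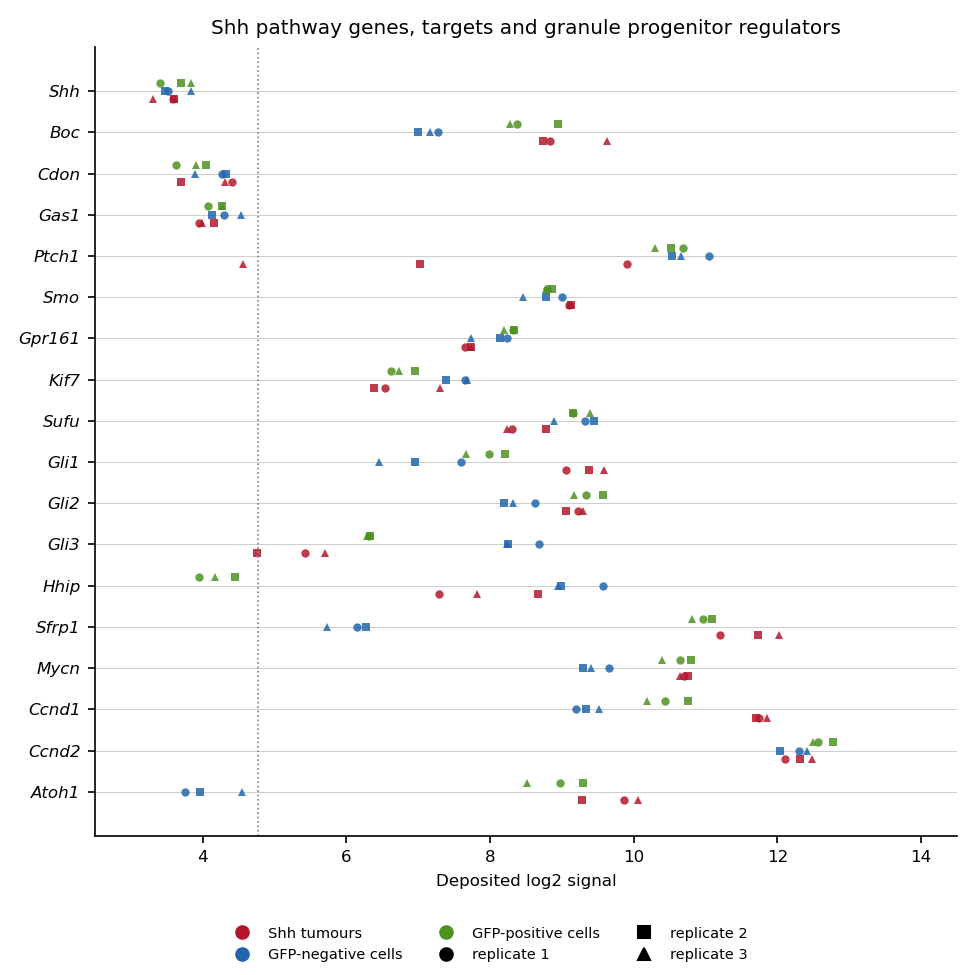
Deposited log2 signal (horizontal axis) of Shh pathway genes, targets and Atoh1; each point is 1 array, colour gives the group, shape the replicate and the dotted line the background of 4.77. Gli1, Boc, Mycn and Ccnd1 are higher in all tumours than in all GFP-negative arrays, while the 3 Ptch1 values of the tumours spread from 9.90 to 4.56.

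Among the receptors, Boc, a co-receptor for Shh, rose to 8.84, 8.74 and 9.63 from 7.28, 7.0 and 7.17 (1.92 ± 0.26, adjusted p = 1.4e-04). Smo, which Ptch1 holds inactive, read 9.10, 9.12 and 9.11 in the tumours and 9.0, 8.78 and 8.46 in the GFP-negative cells, a difference of 0.36 that did not pass (adjusted p = 0.12). The inhibitors Sufu (-0.78, adjusted p = 0.049) and Kif7 (-0.83, adjusted p = 0.031) were called lower by narrow margins. Kif7 lost its call without GFP-negative 3 (adjusted p = 0.083), and both lost it without GFP-negative 1 or Shh 1 and on the 6 arrays alone. Of the targets, Mycn, the Myc family gene of Shh tumours, rose to 10.70, 10.75 and 10.64 from 9.66, 9.30 and 9.41 (1.24 ± 0.20, 2.36-fold, adjusted p = 6.2e-04), and its GFP-positive mean was 10.62. Myc read 8.19, 9.13 and 8.15 in the tumours and 8.70, 8.55 and 8.56 in the GFP-negative cells, a difference of -0.11 (adjusted p = 0.94). Mycl differed by 0.29 (adjusted p = 0.61).

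Hhip, a target that binds and sequesters Shh, read 7.29, 8.66 and 7.82 in the tumours and 9.57, 8.99 and 8.94 in the GFP-negative cells. The tumours were lower without overlap, but the difference of -1.24 did not pass (adjusted p = 0.19), and the GFP-positive mean was at background, 4.19. Sfrp1, a secreted Wnt antagonist that marks human Shh tumours, read 11.20, 11.73 and 12.02 in the tumours and 6.15, 6.27 and 5.73 in the GFP-negative cells, a rise of 5.60 ± 0.25 (48.6-fold, adjusted p = 2.3e-08). Of 9 genes listed as markers of human Shh medulloblastoma, Atoh1 left aside, 3 rose (Sfrp1, Boc and Ntrk3) and 2 fell (Eya1 and Nkx2-2). Ntrk3, the neurotrophin-3 receptor, rose by 1.84 ± 0.22 (adjusted p = 6.4e-05). Eya1, a transcriptional coactivator, was at 4.75, 3.78 and 4.69 in the tumours and at 8.69, 7.95 and 8.09 in the GFP-negative cells, so this marker of the human subgroup was at or below background in these tumours.

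Genes of the G1 phase of the cell cycle were higher in part. Of 23 cyclins, kinases, inhibitors, Rb and E2f genes, 10 were called, each higher (median 0.55), and 8 were called without GFP-negative 3 (median 0.37). Ccnd1, the D-type cyclin induced by Shh, read 11.74, 11.70 and 11.86 in the tumours and 9.19, 9.34 and 9.52 in the GFP-negative cells. The arrays of each group were close together and the groups far apart (2.42 ± 0.22, 5.35-fold, adjusted p = 9.0e-06). Cdk6, a kinase partner of the D cyclins, read 10.47, 10.97 and 10.57 against 8.26, 8.13 and 7.62 (2.67 ± 0.37, 6.35-fold, adjusted p = 1.7e-04). Ccnd2, high on all 6 arrays at 12.04 to 12.48, differed by 0.05 (adjusted p = 0.92).

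Inhibitors of these kinases were among the G1 genes that rose. Cdkn2a, which encodes p16Ink4a and p19Arf, read 9.02, 7.69 and 7.17 in the tumours and 3.19, 3.41 and 3.99 in the GFP-negative cells. It was at background in all sorted cells, with a GFP-positive mean of 3.90, and present in every tumour (4.43 ± 0.74, 21.6-fold, adjusted p = 7.2e-04). Its neighbour Cdkn2b, which encodes p15Ink4b, read 6.42, 6.39 and 6.32 against 4.36, 4.57 and 4.97 (1.74 ± 0.25, adjusted p = 2.1e-04), with a GFP-positive mean of 4.33. Cdkn1b, the inhibitor p27Kip1, rose by 1.07 ± 0.15 (adjusted p = 2.4e-04), a call lost when the probe sets of the gene were averaged (0.57). E2f1, a transcription factor of S-phase entry, rose to 8.06, 8.18 and 8.11 from 6.72, 6.89 and 6.47 (1.43 ± 0.13, adjusted p = 1.1e-05). Its GFP-positive mean was 8.57.

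Most DNA replication genes rose. Of 28 measured genes, 22 were called, each higher (median 1.05), against 16.0% of all genes, and 16 without GFP-negative 3 (median 0.83). Mcm6, a subunit of the replicative helicase, read 11.02, 11.26 and 11.50 in the tumours and 10.41, 10.40 and 9.73 in the GFP-negative cells. The groups did not overlap and GFP-negative 3 was the lowest array (1.08 ± 0.21, adjusted p = 0.0022; 0.86 without that array). Among the 22 were the helicase genes Mcm2, Mcm3, Mcm5, Mcm6 and Mcm7, the Gins genes of the same machine (Gins1, Gins2 and Gins3), Cdt1 and Cdc6, which load the helicase, and the primase Prim1 (1.31 ± 0.25, adjusted p = 0.0019). Of these, Mcm3 (adjusted p = 0.072), Gins1 (adjusted p = 0.072) and Cdc6 (adjusted p = 0.091) lost their calls without GFP-negative 3. Mcm3 also lost it without any 1 tumour array, Gins1 without Shh 2 or Shh 3, and Cdc6 without GFP-negative 2 or Shh 1. On the 6 arrays alone 16 of the list were called, and Mcm2, Mcm3 and Gins1 were not. Pcna, the sliding clamp, did not differ beyond its error: 12.42, 12.69 and 12.57 in the tumours against 12.52, 12.45 and 12.57 (0.05, adjusted p = 0.78).

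Promoter sequences are shown for the replication genes that hold an E2F site, a known control element of this group. Promoters from RefSeq (GRCm38.p6, 250 bases before to 50 after the start) were found for 23 of the 28 genes and searched on both strands for TTTCGCGC, an E2F site. It occurred in 6 of the 23 (26.1%), against 0.592% of the 13514 compared genes with a promoter and 0.323% of all promoters in the table. All 6 genes with the letters were called higher, as were 12 of the 17 without them. Without GFP-negative 3, Orc1 (0.97, adjusted p = 0.11) and Rfc3 (0.52, adjusted p = 0.084) lost their calls and Mcm5, Mcm6, Mcm7 and Lig1 kept theirs. Orc1 and Rfc3 also lost theirs without GFP-negative 2, Shh 2 or Shh 3 (adjusted p from 0.052 to 0.13). On the 6 arrays alone Rfc3 (adjusted p = 0.058) and Lig1 (adjusted p = 0.055) were not called. In Mcm7 and Lig1 the letters lie 16 and 26 bases after the start. The other 4 are given as the 250 bases before the start, 5′ to 3′ on the strand of the gene, with the site in capitals on whichever strand it was found.
Mcm5 (chr8:75109259-75109508, + strand): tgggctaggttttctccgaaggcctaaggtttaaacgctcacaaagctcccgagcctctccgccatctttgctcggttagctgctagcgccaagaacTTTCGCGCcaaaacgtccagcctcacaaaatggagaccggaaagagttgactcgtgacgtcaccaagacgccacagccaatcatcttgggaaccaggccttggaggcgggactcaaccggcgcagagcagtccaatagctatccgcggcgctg
Mcm6 (chr1:128359706-128359955, - strand): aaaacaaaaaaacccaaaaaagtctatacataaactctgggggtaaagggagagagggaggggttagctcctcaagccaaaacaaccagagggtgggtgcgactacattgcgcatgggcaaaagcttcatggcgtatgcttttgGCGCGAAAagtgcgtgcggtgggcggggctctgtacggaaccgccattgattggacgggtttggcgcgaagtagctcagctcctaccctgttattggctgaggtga
Orc1 (chr4:108579204-108579453, + strand): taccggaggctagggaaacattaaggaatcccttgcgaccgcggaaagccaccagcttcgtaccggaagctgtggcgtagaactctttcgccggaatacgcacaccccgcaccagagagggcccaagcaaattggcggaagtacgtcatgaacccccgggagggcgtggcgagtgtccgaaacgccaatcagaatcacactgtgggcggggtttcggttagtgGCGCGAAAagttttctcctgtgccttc
Rfc3 (chr5:151651209-151651458, - strand): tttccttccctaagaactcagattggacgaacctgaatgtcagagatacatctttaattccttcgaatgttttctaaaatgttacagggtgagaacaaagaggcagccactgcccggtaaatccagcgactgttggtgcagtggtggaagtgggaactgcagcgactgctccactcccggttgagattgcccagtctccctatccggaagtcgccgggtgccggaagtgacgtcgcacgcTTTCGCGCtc
The site begins 153, 106, 27 and 10 bases before the start in these 4 promoters. Mcm5, Mcm6 and Mcm7 encode helicase subunits, Orc1 part of the origin recognition complex, Rfc3 part of the clamp loader and Lig1 the ligase of lagging-strand synthesis. Their differences ran from 0.56 (Rfc3) to 1.19 (Orc1), within the range of the list. A related motif, TTCCCGC, occurred in 10 of the 23 replication promoters (43.5%) and in 7.87% of compared genes. Mcm7 and Rfc3 hold both motifs. A match is a description of the letters and not evidence of binding.

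Mitosis genes rose as well, but how many passed the test moved with single arrays. Of 28 measured, 17 were called, each higher (median 0.70). Without GFP-negative 3 the count was 10 (median 0.56), without Shh 2 it was 11, and after cyclic loess it was 8. Espl1, the protease separase, read 8.48, 8.59 and 8.60 in the tumours and 7.56, 7.56 and 7.07 in the GFP-negative cells (1.16 ± 0.16, adjusted p = 1.7e-04), without overlap. Cdk1, the mitotic kinase, read 10.90, 11.19 and 11.45 against 10.41, 10.43 and 10.46 (0.75 ± 0.15, adjusted p = 0.0025). Mki67, the proliferation antigen Ki-67, read 11.45, 11.57 and 10.69 against 11.18, 11.02 and 10.89, and these groups overlapped (0.20, adjusted p = 0.53).

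The cell cycle homology region, TTTGAA, through which the DREAM complex represses mitotic genes, was searched in the same way. It occurred in 17 of 22 mitosis promoters (77.3%), against 15.7% of compared genes, and CCAAT, the binding letters of NF-Y, in 17 of 22 (77.3%), against 42.3%. Of the 17 genes with TTTGAA, 10 rose, and of the 5 without it, 3 rose, so carrying the letters did not separate the genes that rose. The 4 called members with the letters before the start and the smallest adjusted p are shown, again as the 250 bases before the start with the site in capitals.
Espl1 (chr15:102296043-102296292, + strand): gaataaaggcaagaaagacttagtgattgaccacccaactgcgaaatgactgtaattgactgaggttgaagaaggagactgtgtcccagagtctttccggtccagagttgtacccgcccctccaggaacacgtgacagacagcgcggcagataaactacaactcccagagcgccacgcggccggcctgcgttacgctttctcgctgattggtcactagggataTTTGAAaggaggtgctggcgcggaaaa
Ube2c (chr2:164769679-164769928, + strand): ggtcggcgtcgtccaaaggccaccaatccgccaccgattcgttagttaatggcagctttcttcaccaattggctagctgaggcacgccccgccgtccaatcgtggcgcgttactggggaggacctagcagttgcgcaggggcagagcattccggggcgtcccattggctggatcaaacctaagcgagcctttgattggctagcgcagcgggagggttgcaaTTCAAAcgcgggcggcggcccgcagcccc
Cdk1 (chr10:69352913-69353162, - strand): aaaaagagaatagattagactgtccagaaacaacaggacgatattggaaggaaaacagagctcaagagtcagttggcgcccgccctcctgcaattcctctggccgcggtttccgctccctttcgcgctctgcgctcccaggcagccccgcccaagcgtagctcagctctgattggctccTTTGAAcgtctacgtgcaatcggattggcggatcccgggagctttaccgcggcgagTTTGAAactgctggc
Ccnb2 (chr9:70421555-70421804, - strand): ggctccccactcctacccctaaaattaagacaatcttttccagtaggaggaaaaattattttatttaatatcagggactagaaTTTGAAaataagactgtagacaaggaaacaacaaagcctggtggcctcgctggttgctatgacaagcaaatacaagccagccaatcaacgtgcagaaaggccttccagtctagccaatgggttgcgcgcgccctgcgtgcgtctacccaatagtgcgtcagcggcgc
The letters begin 27 bases before the start in Espl1 and 29 in Ube2c, 71 and 15 in Cdk1, and 167 in Ccnb2. In Ccnb2 they also occur 4 bases after the start, outside the printed stretch. Ube2c is the ubiquitin carrier of the anaphase-promoting complex and Ccnb2 a cyclin partner of Cdk1, and they rose by 1.01 ± 0.17 (adjusted p = 6.9e-04) and 0.98 ± 0.22 (adjusted p = 0.0050). The Gli motif GACCACCCA was found in 0.222% of compared genes and in no promoter of the 11 pathway genes that had one in the table, which says only that these letters are absent from these windows.

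Genes of ribosome biogenesis, the making of ribosomal RNA and its assembly into subunits, rose in the tumours. Of 24 measured, 18 were called, each higher (median 0.86), and 17 without GFP-negative 3 with the same median. After cyclic loess, and after centring with scaling, 13 were called. Nop56, a core protein of the small nucleolar particles that guide rRNA methylation, read 11.28, 11.15 and 11.16 in the tumours and 9.87, 10.05 and 9.68 in the GFP-negative cells. Replicates were close and the groups separate (1.33 ± 0.12, 2.52-fold, adjusted p = 6.9e-06). Ppan, a large-subunit assembly factor, had the largest rise of the list, 1.52 ± 0.19 (adjusted p = 7.7e-05), and Polr1a, the catalytic subunit of RNA polymerase I, rose by 1.31 ± 0.17 (adjusted p = 1.3e-04). Against the GFP-positive fraction, 9 of the 24 were called, each higher in the tumours (median 0.60), where 4.63% of all genes were called higher and 2.92% lower. The replication list had a median of 0.23 there.

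**Figure D3:**
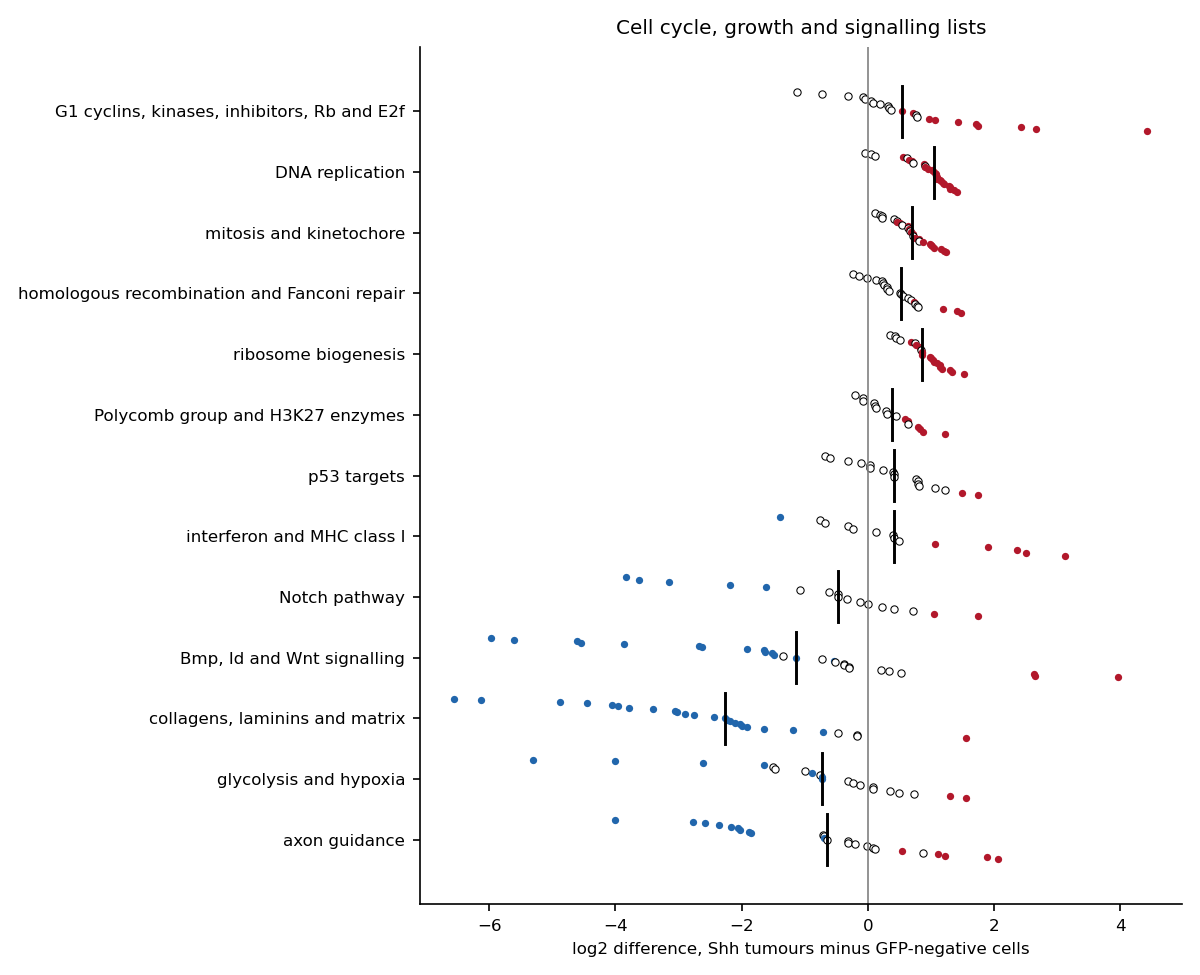
Difference in log2 signal, Shh tumours minus GFP-negative cells (horizontal axis), for the genes of 13 lists; each point is 1 gene, red for called higher, blue for called lower and open for not called, and the bar is the list's median. Replication and ribosome biogenesis genes lie almost entirely to the right of 0 in a narrow band, whereas matrix and Bmp, Id and Wnt genes spread far to the left.

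Other nuclear and repair genes showed fewer calls. Of 22 homologous recombination and Fanconi genes, 4 were called, each higher (Exo1, Rad51ap1, Rad54b and Fancc). These 4 are near the share of all genes called higher, 16.0%. Only 2 were called without GFP-negative 3 or without Shh 3, but 9 after centring and 10 after centring with scaling. Rad54b lost its call on the 6 arrays alone and without any 1 array but GFP-negative 1 (adjusted p from 0.055 to 0.19). Fancc lost its call on the 6 arrays alone and without GFP-negative 1, GFP-negative 3 or Shh 3. Exo1, an exonuclease of end resection, rose to 7.38, 7.58 and 7.55 from 6.51, 6.16 and 5.40 (1.48 ± 0.28, adjusted p = 0.0016). Of 16 Polycomb genes, 6 were called, each higher, and 3 after cyclic loess. Bmi1, a subunit of Polycomb repressive complex 1, rose to 10.91, 10.99 and 10.52 from 9.75, 9.68 and 9.30 (1.23 ± 0.20, 2.35-fold, adjusted p = 6.6e-04). Ezh2, the H3K27 methyltransferase, differed by -0.07 (adjusted p = 0.82). Among 18 genes that p53 is known to activate, Bbc3 (1.5 ± 0.36, adjusted p = 0.0071) and Eda2r (1.74 ± 0.34, adjusted p = 0.0019) rose, and 4 were called higher without GFP-negative 1, 4 after centring with scaling and 5 after centring. Bbc3 encodes the apoptosis inducer Puma and Eda2r a death domain receptor. These 2 of 18 are not above the share of all genes called higher, 16.0%. Cdkn1a, the p21 inhibitor, overlapped between groups (8.18, 8.43 and 7.68 against 5.97, 8.52 and 7.51).

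The largest falls were in genes of other cell types of the cerebellum. Aqp4, the water channel of astrocytes, read 5.06, 4.38 and 4.0 in the tumours and 12.35, 11.35 and 11.65 in the GFP-negative cells. The tumours were near or below background and the GFP-negative arrays among the brightest (-7.30 ± 1.05, 158-fold lower, adjusted p = 2.4e-04). Of 20 measured genes of astroglia and Bergmann glia, 17 fell and 1 rose (median -3.26). Aldh1l1, a folate enzyme used as a pan-astrocyte marker, fell from 11.07, 10.02 and 10.42 to 3.97, 3.81 and 3.90 (-6.61 ± 0.39, adjusted p = 1.9e-07). Gdf10, a Bergmann glia marker, fell from 12.56, 11.56 and 12 to 4.55, 6.13 and 6.38 (-6.35 ± 0.40, adjusted p = 3.6e-07), and stayed above background in Shh 2 and Shh 3. The gene called higher was Sox9, a factor of glial fate (0.74 ± 0.25, adjusted p = 0.040), a call lost without GFP-negative 2 or any 1 tumour array (adjusted p from 0.071 to 0.16) and on the 6 arrays alone.

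**Figure D4:**
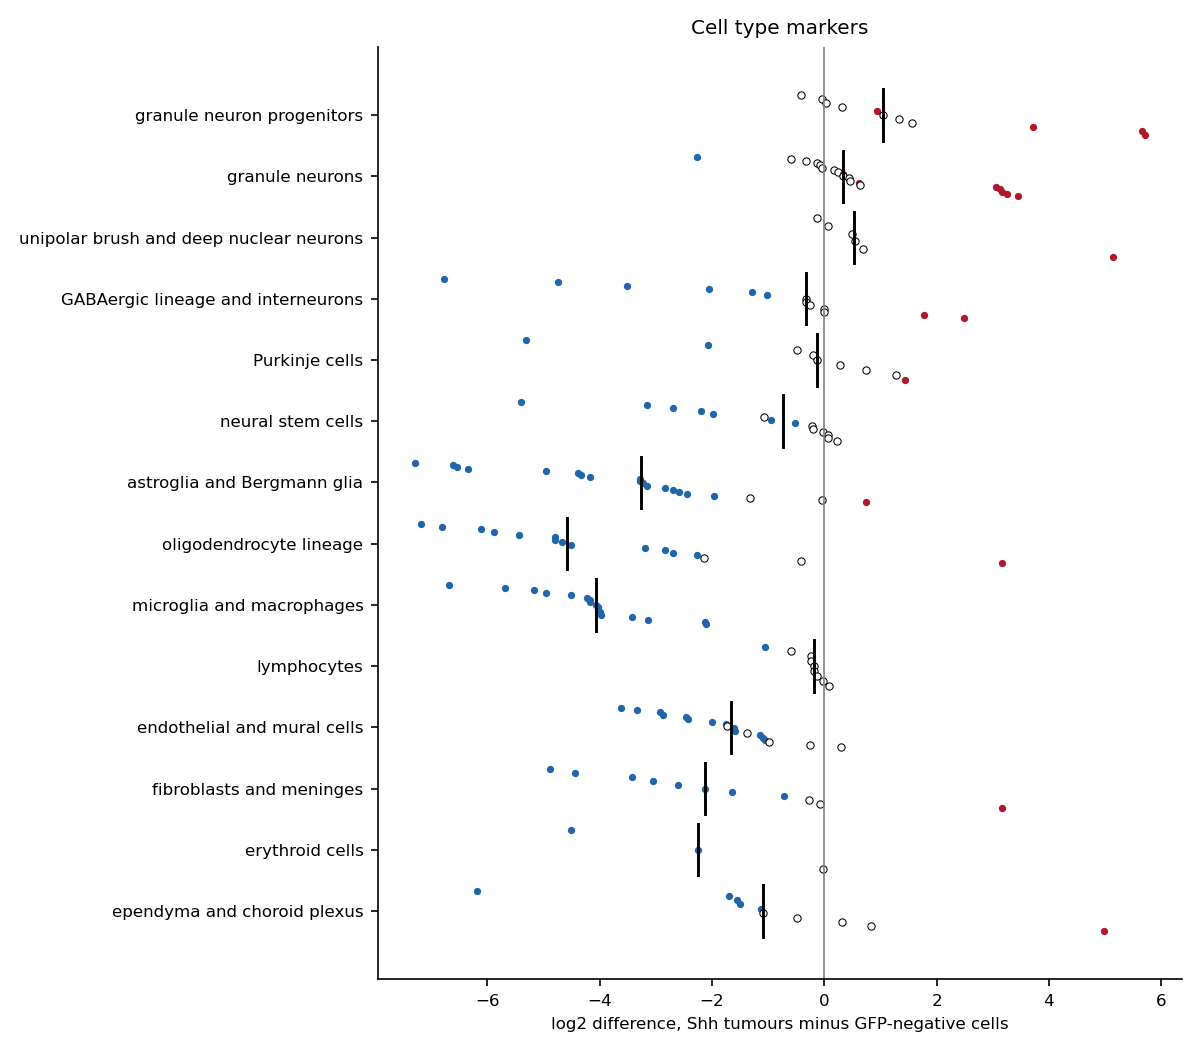
Difference in log2 signal, Shh tumours minus GFP-negative cells (horizontal axis), for the marker genes of 14 cell types; each point is 1 gene, red for called higher, blue for called lower and open for not called, and the bar is the list's median. All 17 microglial genes are blue, oligodendrocyte genes reach from -7.19 to 3.17 (Pdgfra), and granule lineage markers lie mostly to the right of 0.

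Of 16 oligodendrocyte genes, 13 were called lower and 1 higher (median -4.59, and -3.22 with the probe sets of a gene averaged). Enpp6, a marker of newly formed oligodendrocytes, fell from 11.67, 10.73 and 11.02 to 3.84, 4.20 and 3.83 (-7.19 ± 0.73, adjusted p = 1.9e-05). Mbp, the myelin basic protein, read 6.48, 6.28 and 6.21 in the tumours and 12.53, 12.20 and 11.92 in the GFP-negative cells, so signal above background remained in each tumour. Pdgfra, the receptor that marks oligodendrocyte precursors, went the other way. It read 8.82, 8.39 and 7.28 in the tumours and 5.26, 5.50 and 4.23 in the GFP-negative cells (3.17 ± 0.45, 9.0-fold, adjusted p = 2.4e-04), while its GFP-positive mean was 8.69 and the other precursor genes Olig1 and Olig2 fell by 3.20 and 2.84. The Olig2 call was lost without GFP-negative 1 or Shh 1 (adjusted p = 0.067 and 0.065).

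All 17 measured genes of microglia and macrophages fell, with and without GFP-negative 3 (median -4.07). Mrc1, the mannose receptor of border macrophages, fell from 10.09, 10.90 and 10.12 to 3.67, 3.5 and 3.91 (-6.68 ± 0.24, 102-fold lower, adjusted p = 4.1e-09), which is background in every tumour. P2ry12, a purine receptor of resting microglia, was likewise at background in the tumours (3.54, 4.05 and 3.87 against 9.08, 10.21 and 9.20). The complement gene C1qb kept a signal of 7.31, 8.01 and 7.61 in the tumours, against 11.31, 12.50 and 11.35 in the GFP-negative cells and a GFP-positive mean of 3.70. The list's median signal was 5.11 to 5.57 on the tumour arrays and 9.57 to 10.90 on the GFP-negative arrays, highest in GFP-negative 2.

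Vascular and mesenchymal genes fell as well. Of 18 endothelial and mural genes, 13 were called, each lower (median -1.67). Without GFP-negative 2 the count was 9 (median -1.13), and it was 10 on the 6 arrays alone, without Shh 1 or without Shh 2. Pecam1, Tie1, Eng and Abcb1a lost their calls without GFP-negative 2 (adjusted p from 0.058 to 0.11). Cldn5, the tight junction protein of brain endothelium, fell from 9.79, 10.55 and 10.27 to 5.81, 6.74 and 7.19 (-3.62 ± 0.60, adjusted p = 6.6e-04). Of 11 fibroblast and meningeal genes 8 fell, and 5 without GFP-negative 2. The gene of that list that rose was again Pdgfra. Of 27 matrix genes, 23 fell and 1 rose (median -2.26). Tnc, the glial matrix protein tenascin-C, fell by 6.55 ± 0.46 (adjusted p = 1.0e-06), and the fibrillar collagens Col1a1, Col1a2 and Col3a1 were called lower. Col1a1 lost its call when any array but GFP-negative 3 was left out (adjusted p from 0.054 to 0.10). Col11a1 was the matrix gene that rose (1.55 ± 0.47, adjusted p = 0.024), a call lost without GFP-negative 2, GFP-negative 3, Shh 1 or Shh 2 (adjusted p from 0.055 to 0.086). Hba-a1, an alpha-globin gene, was at 13.85, 13.96 and 14.12 in the GFP-negative cells and at 8.92, 9.08 and 10.41 in the tumours (-4.51 ± 0.80, adjusted p = 0.0011).

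The GFP-negative arrays were themselves uneven for some of these genes. Ttr, the transthyretin of choroid plexus, read 8.47, 13.06 and 8.76 in the GFP-negative cells and 3.91, 3.95 and 3.86 in the tumours. GFP-negative 2 stood far above the other sorted arrays, and the fall of 6.19 ± 1.89 (adjusted p = 0.026) was 4.71 and no longer passed without it. Leaving out any tumour array also ended that call. In the ependyma and choroid plexus list 5 of 10 genes fell, with a median signal of 3.88 to 3.91 in the tumours and 4.74, 6.39 and 4.47 in the GFP-negative cells. Otx2, counted in that list but also a factor of the granule lineage, rose from 3.33, 5.10 and 3.70 to 9.14, 8.83 and 9.12 (4.99 ± 0.63, 31.8-fold, adjusted p = 9.7e-05).

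Several genes of the GABAergic lineage were at background in the tumours. Ptf1a, the factor that specifies cerebellar GABAergic neurons, fell from 11.24, 10.68 and 10.72 to 4.10, 4.10 and 4.11 (-6.78 ± 0.23, 110-fold lower, adjusted p = 1.8e-09). Tfap2b, a factor of GABAergic precursors, read 3.27, 3.63 and 3.41 in the tumours and 9.81, 10.49 and 10.94 in the GFP-negative cells, with a GFP-positive mean of 8.87. It was below background in every tumour and far above it on every sorted array (-6.98 ± 0.31, adjusted p = 2.2e-08). Gad1, which makes GABA, was also below background only in the tumours, with 3.83, 3.59 and 3.51 in the tumours, 7.69, 9.15 and 8.35 in the GFP-negative cells (-4.75 ± 0.30, adjusted p = 3.6e-07) and a GFP-positive mean of 9.28. Lhx5, a homeobox gene of that lineage, fell by 3.51 ± 0.24 (adjusted p = 7.5e-07).

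Of the 13 GABAergic genes measured, 6 fell and 2 rose. The genes that rose were Lhx1, another LIM homeobox gene (10.38, 10.41 and 10.02 against 7.64, 8.03 and 7.66, GFP-positive mean 10.62), and Pvalb, the calcium buffer parvalbumin (1.77 ± 0.50, adjusted p = 0.018). Pvalb lost its call without GFP-negative 2, GFP-negative 3 or Shh 1 (adjusted p from 0.055 to 0.081). Of 9 Purkinje cell genes 1 rose and 2 fell, and Calb1, Car8 and Pcp2 were at background in both groups. The falls were in Aldoc, which astrocytes also express (-5.31), and in Dab1, which passes on the reelin signal (-2.08 ± 0.51, adjusted p = 0.0078). Foxp2, a transcription factor, was called higher by 1.44 ± 0.39 (adjusted p = 0.015), but not without GFP-negative 3 (adjusted p = 0.064) or Shh 1 (adjusted p = 0.053). Of 14 neural stem cell genes, 7 were called, each lower (median -0.74). Fabp7, the fatty acid binding protein of radial glia, read 7.80, 7.36 and 9.09 in the tumours and 13.82, 12.97 and 13.68 in the GFP-negative cells (-5.41 ± 0.98, adjusted p = 0.0013). Nes, the intermediate filament nestin, was near background in both groups (4.27 to 5.68 and 4.83 to 4.96).

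Synaptic genes rose in part. Of 22 genes of vesicles and release, 8 rose and 3 fell (median 0.53), and 7 and 3 without GFP-negative 3 (median 0.35). Slc17a6, the vesicular glutamate transporter 2, read 9.28, 9.62 and 9.85 in the tumours and 3.60, 3.47 and 4.66 in the GFP-negative cells (5.67 ± 0.54, 51.0-fold, adjusted p = 1.1e-05). Syp and Snap25, proteins of the vesicle and of its fusion machinery, rose by 2.54 ± 0.29 (adjusted p = 4.4e-05) and 2.51 ± 0.32 (adjusted p = 1.1e-04). Slc32a1, the vesicular GABA transporter, fell to 3.42, 3.5 and 3.39 from 4.62, 6.37 and 5.50 (-2.06 ± 0.31, adjusted p = 3.1e-04), opposite to its glutamate counterpart.

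Of 19 glutamate and GABA receptor genes, 4 rose and 5 fell. Gria1, an AMPA receptor subunit, fell from 10.67, 10.18 and 10.19 to background, 4.13, 4.06 and 3.96 (-6.30 ± 0.16, adjusted p = 1.0e-10), while Gria2, another subunit, rose by 1.49 ± 0.37 (adjusted p = 0.0095). Grm3, a metabotropic receptor, fell by 6.67 ± 0.22 (adjusted p = 1.4e-09) and Grik2, a kainate receptor subunit, rose by 2.76 ± 0.31 (adjusted p = 4.3e-05). Among 25 axon guidance genes, 5 rose and 10 fell, and 3 rose without GFP-negative 3. Nrp1, a semaphorin receptor, fell by 4.0 ± 0.65 (adjusted p = 5.8e-04), and Ntn1, the guidance cue netrin-1, rose by 2.07 ± 0.46 (adjusted p = 0.0044), as did Robo2, a Slit receptor, by 1.89 ± 0.35 (adjusted p = 0.0014). Unc5c, a netrin receptor, differed among the tumours, with 8.43, 6.83 and 5.89 against 8.95, 9.25 and 9.02, and its call was lost without Shh 2 or Shh 3.

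In the list of Bmp, Id and Wnt genes, 14 of 27 fell and 3 rose (median -1.14). Without GFP-negative 3, 15 fell, and without GFP-negative 2 the median was -0.86. Only 11 fell on the 6 arrays alone, without GFP-negative 1 or without Shh 1. Id1, Smad6 and Smad7 lost their calls in each of these last 3 fits (adjusted p from 0.054 to 0.17). Bmp4, a ligand that limits granule progenitor division, fell from 10.58, 9.60 and 8.29 to background, 3.32, 3.84 and 3.39 (-5.97 ± 0.83, adjusted p = 1.9e-04). Id4, an inhibitor of helix-loop-helix factors and a Bmp target, read 3.87, 5.82 and 6.86 in the tumours and 11.75, 10.61 and 11.01 in the GFP-negative cells (-5.61 ± 0.83, adjusted p = 3.0e-04). It was at background in Shh 1 and above it in Shh 2 and Shh 3, and its GFP-positive mean was 5.63. The genes that rose modulate Wnt signalling: Sfrp2, a secreted antagonist (3.97 ± 0.34, adjusted p = 5.2e-06), Fzd7, a Wnt receptor (2.65 ± 0.32, adjusted p = 7.4e-05), and Nkd1, an intracellular inhibitor (2.63 ± 0.24, adjusted p = 9.0e-06). The GFP-positive means of Nkd1 and Fzd7 were 10.04 and 9.0, at the tumours' level, while that of Sfrp2 was 6.73, below all tumours. Axin2, the usual reporter of Wnt activity, differed by -0.52 (adjusted p = 0.32).

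In the Notch list 5 of 17 fell and 2 rose. Notch1 fell from 10.98, 10.51 and 10.80 to 6.54, 6.60 and 8.30 (-3.62 ± 0.45, adjusted p = 8.5e-05) and Notch3 by 3.83 ± 0.42 (adjusted p = 2.9e-05), both receptors, and the effector Hes5 fell by 3.15 ± 0.33 (adjusted p = 2.4e-05). The effector Hey1 (1.05, adjusted p = 0.036) and the ligand-like Dner (1.74, adjusted p = 0.013) rose, and both calls were lost without GFP-negative 3 (adjusted p = 0.10 and 0.054) or Shh 1 (adjusted p = 0.13 and 0.056).

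Several interferon-stimulated genes were above both sorted fractions. Of 14 measured interferon and MHC class I genes, 5 rose and 1 fell. Ifit1, which binds foreign RNA ends, read 6.17, 6.86 and 7.29 in the tumours and 3.5, 3.69 and 3.74 in the GFP-negative cells, with a GFP-positive mean of 3.27. It was above background only in the tumours (3.13 ± 0.68, adjusted p = 0.0039). Oasl2, an antiviral gene, read 6.35, 5.74 and 6.5 against 3.66, 3.93 and 3.46 (2.51 ± 0.26, adjusted p = 2.0e-05), and Ifi27 rose by 2.36 ± 0.35 (adjusted p = 2.8e-04). H2-K1, an MHC class I chain, fell by 1.39 ± 0.40 (adjusted p = 0.018). That call was lost without GFP-negative 2 (-0.99) and without Shh 2 (-0.98).

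Immediate early genes, which respond quickly to stimulation and to cell handling, were high in both groups. Fos read 12.39, 13.22 and 12.19 in the tumours and 13.31, 13.01 and 13.35 in the GFP-negative cells. Of 19 such genes 3 fell, Hspa1b, Nr4a1 and Btg2, each of which lost its call when 1 array was left out. These 3 are near the share of all genes called lower, 13.1%. The list's median signal was 10.89 to 11.42 on the GFP-negative arrays and 7.65 to 8.04 on the GFP-positive ones. Shh 2 had the highest list median among the tumours (11.03, against 9.04 and 9.58), and 5 genes were called lower without it, while 1 was without GFP-negative 2 and all 3 calls were lost without Shh 1. In the glycolysis and hypoxia list, 7 of 21 fell and 2 rose. Hk2, the hexokinase induced in Shh-driven progenitors, rose to 10.48, 10.44 and 10.79 from 9.12, 9.31 and 8.62 (1.55 ± 0.30, adjusted p = 0.0017). Aldoc, an aldolase of astrocytes, fell by 5.31 ± 0.90 (adjusted p = 7.9e-04).

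Xist and the Y-linked genes differed widely among the tumours. Xist, the RNA of the inactive X, read 6.86, 5.01 and 12.38 in the tumours and 11.13, 11.73 and 11.15 in the GFP-negative cells. Eif2s3y, a Y-linked gene, read 9.34, 8.76 and 3.51 against 9.27, 8.72 and 9.15. Shh 3 was thus high for Xist and below background for Eif2s3y, Shh 1 and Shh 2 were low but above background for Xist and high for Eif2s3y, and each GFP-negative array carried both signals.

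The size of the differences varied by chromosome. Over the 10831 genes above background in either group, the median difference from the GFP-negative mean was 0.21, 0.20 and 0.20 in Shh 1, Shh 2 and Shh 3. On chromosome 13, with 395 such genes, it was -0.46, -0.38 and -0.20. All tumours were low there, and 72.7%, 67.1% and 59.2% of those genes lay below the GFP-negative mean, against 39.8%, 39.9% and 40.8% over all chromosomes. Of the 655 genes of chromosome 13, 40 were called higher (6.11%) and 144 lower (22.0%). Ptch1, Gli3, Id4 and Smad5, picked from the genes called lower, are on this chromosome, as is Nrn1, which had the second largest rise. The tumours' order differed between the chromosome and Ptch1. The chromosome's median was lowest in Shh 1, where Ptch1 read 9.90, and least low in Shh 3, where Ptch1 read 4.56.

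**Figure D5:**
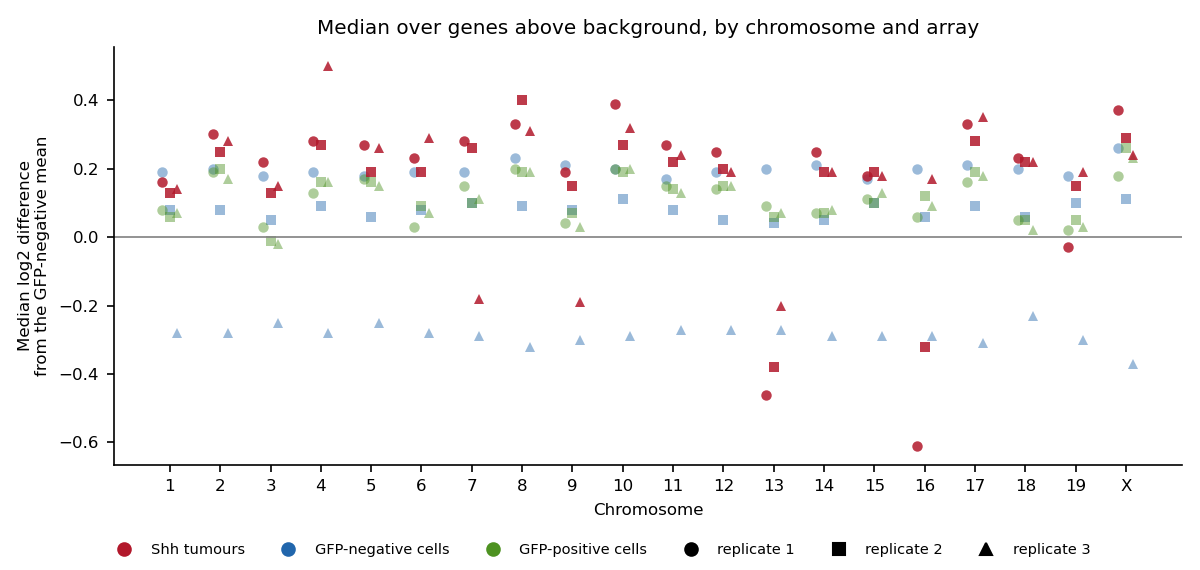
Median difference in log2 signal from the GFP-negative mean (vertical axis) over genes above background, by chromosome (horizontal axis); each point is 1 array, colour gives the group and shape the replicate. Tumour points leave the band of the other chromosomes on 13 (all 3), 16 (Shh 1 and Shh 2), 7, 9 and 4 (Shh 3) and 19 (Shh 1), whereas the GFP-negative arrays keep offsets near 0.20, 0.08 and -0.29.

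Chromosome 16 was low in Shh 1 and Shh 2 but not in Shh 3, with medians of -0.61, -0.32 and 0.17 over 345 genes. In Shh 1, 83.8% of these genes lay below the GFP-negative mean. Shh 3 alone was low on chromosome 7 (0.28, 0.26 and -0.18) and on chromosome 9 (0.19, 0.15 and -0.19), and was the highest tumour on chromosome 4 (0.28, 0.27 and 0.50). Shh 1 was the lowest on chromosome 19 (-0.03, 0.15 and 0.19). The GFP-negative arrays had offsets of 0.20, 0.08 and -0.29 over all genes and 0.20, 0.04 and -0.27 on chromosome 13. Against the GFP-positive mean the medians were -0.49, -0.40 and -0.23 on chromosome 13 and -0.62, -0.35 and 0.12 on chromosome 16, with the same tumour arrays. DNA copy number was not measured, and its part in these shifts was not tested.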

How the data were processed

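RNA was hybridised to 1-colour Affymetrix arrays, and the authors deposited log2 signals, with RMA and Partek 6.5 named per the submitters' processing notes. Values ran from 2.66 to 14.13. Of 45141 probe sets, 28898 are listed with 1 gene, and among several probe sets of a gene the brightest on average over the 15 arrays stood for it. A 1-way fit of 5 groups of 3 arrays (limma 3.58.1, R 4.3.3) gave moderated two-sided tests with Benjamini-Hochberg adjustment over all 17097 genes, a gene being called below 0.05. The fit was tested on simulated data. There, 53.7% of genes shifted by 1 log2 unit were recovered, 86.6% at 2 and 92.4% at 3, and 5 of 160 calls were unshifted genes. The real data gave 4959 calls, so these rates need not hold for them. A gene that was not called is therefore not shown to be unchanged. An exact permutation test of 3 against 3 cannot go below 0.1. Members and lists were chosen with earlier results of these data known. Named genes are the 15 largest rises and falls among called, non-overlapping genes of at least 2-fold that lie above background in the higher group (predicted genes left out), 9 anchors (Gli1, Ptch1, Atoh1, Mycn, Myc, Mycl, Cdkn2c, Ccnd1, Ccnd2) and, per list, up to 5 called members in order of adjusted p, with well-known members where fewer are called. Other members were named after their values were seen. Alternatives changed the scaling, probe set choice, dim-gene filter, variance model and arrays used.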

Additional observations from a re-analysis of the deposited data

How the results depend on the processing

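No paired analysis was possible because the replicate numbers were given in accession order and pair no samples. Leaving out 1 array at a time gave 3937 to 4982 calls, against 4959. Fitting only the 6 arrays compared here gave the fewest, 3448 (1820 higher and 1628 lower). The counts moved by over 1.5 times when every probe set was tested by itself (7530 of 28898 probe sets called, 4348 of them higher, against 4959 of 17097 genes). That setting tested more features, here and in the context comparisons, so its larger counts do not show a larger called share. In the context comparisons, genes changed, Shh minus GFP-positive, were 2468 with every probe set and 3987 with array weights, and genes changed, GFP-positive minus GFP-negative, were 7416 and 7225, with 9128 after centring and 9740 with scaling added. Of 149 called named genes, 126 kept their call in all 16 alternatives and none reversed. The other 23 lost it in at least 1 (6 without GFP-negative 3, 8 on only the 6 arrays, 8 after centring and scaling), and the cause was not tested. Most named genes were chosen for a large difference or a small adjusted p, so the choice itself favoured stable calls. Members named after their values were seen are outside these counts, and several of them, such as Cntn1, Sox9 and Pvalb, lost calls. The reversals were in 4 genes that were not called: Myc was 0.03 with array weights and 0.10 centred, and -0.43 to 0.06 with 1 array left out (above 0 without Shh 1, 0.04, or Shh 3). Mycl was -0.03 after loess and -0.07 to 0.59 with 1 array left out, the lowest without GFP-negative 3. Cdkn2c was 0.06 with array weights, 0.29 scaled, 0.16 centred and 0.05 after loess, and -0.13 to 0.03 with 1 array left out. Ccnd2 was -0.21 scaled and -0.20 after loess, and -0.05 to 0.15 with 1 array left out (below 0 without GFP-negative 2 or Shh 3, -0.04). Chromosome medians over all genes (-0.14 on 13, -0.01 on 7 and 0.05 on 4) became -0.33, 0.14 and 0.38 once genes below background in both groups were left out. Genes below the background signal, 7292 in the tumours and 6718 in the GFP-negative cells, have differences whose size the array's floor limits. Another probe set of Cdt1, Fzd7, H2-K1, Ntn1, Ntrk3, Ptch1, Slc32a1, Sox9, Sufu and Syp had the opposite sign, none of them called.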
